A study of Mus musculus with 9 samples.

Results

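The rapid-response program of lung endothelium was described through 37 immediate early and heat shock genes, all of which were found by symbol among the 56748 gene identifiers counted. RNA came from 9 libraries of lung endothelial cells, sorted as DAPI-/CD45-/CD31+ from adult C57BL/6 mice aged 6 weeks. The 3 genotypes gave 3 libraries each: WT mice, DNMAML mice, which carry a construct named after a dominant-negative Mastermind-like protein that blocks transcription by Notch receptors, and Notch1f/f mice, which carry a conditional allele of the receptor gene Notch1. The sources used here do not name the recombinase, the cell type in which it acts, any further allele or agent, or the method by which lungs were dissociated. Nor do they say whether a genotype's libraries are from separate mice. Each genotype held libraries with and without Y-linked RNA, which come from different animals, while libraries alike in this respect may share one, and each p-value measures only the spread between these libraries.

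Immediate early genes are transcribed within minutes of a stimulus without new protein synthesis, mainly through serum response factor with its ternary complex partners and through CREB, downstream of MAP kinases. Their products are transcription factors and feedback inhibitors, and their RNAs are short-lived. Heat shock genes are switched on by heat shock factor when unfolded protein accumulates. Both groups are known to rise when tissue is dissociated and cells are sorted, and in vessels they also respond to shear stress, growth factors and cytokines.

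Levels are given as CPM, the count of a gene relative to the TMM-scaled total of its library, and levels of different genes are compared as CPM per kilobase of exon. Total counts ran from 15522100 to 27842496 per library. The endothelial identity of the sort was checked with a list of 10 markers, whose summed level ran from 15436 to 18889.8 CPM, with Pecam1, which encodes CD31, between 3404 and 4347 CPM. Notch1 stood at 70.8, 29.5 and 176 CPM in Notch1f/f and at least 678 CPM in every other library. All 37 genes passed the filter on low counts, among 19486 genes tested.

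Promoters are shown for 6 of the genes as examples. They hold the letters marked below and belong to genes that behaved differently across the libraries. The part of these letters in that behaviour was not tested. The sequences are the 250 bases before the gene's start, from RefSeq on build GRCm38.p6, printed 5′ to 3′ on the gene's strand, while counts and gene positions refer to GRCm39. Capitals mark TGACG, the first part of the cyclic AMP element TGACGTCA, and TATAAA in Fos, the CArG box bound by serum response factor in Zfp36, TGACGTCA in Ppp1r15a, the paired heat shock unit GAANNTTC in Hspa1a and Hspa1b, and the AP-1 element TGANTCA with TATAAA in Zfp36l1.
Fos (chr12:85473640-85473889, plus strand): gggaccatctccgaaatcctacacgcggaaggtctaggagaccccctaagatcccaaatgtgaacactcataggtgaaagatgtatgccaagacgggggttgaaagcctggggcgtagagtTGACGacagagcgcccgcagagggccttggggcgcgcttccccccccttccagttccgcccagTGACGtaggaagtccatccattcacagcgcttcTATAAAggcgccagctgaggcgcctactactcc
Zfp36 (chr7:28379229-28379478, minus strand): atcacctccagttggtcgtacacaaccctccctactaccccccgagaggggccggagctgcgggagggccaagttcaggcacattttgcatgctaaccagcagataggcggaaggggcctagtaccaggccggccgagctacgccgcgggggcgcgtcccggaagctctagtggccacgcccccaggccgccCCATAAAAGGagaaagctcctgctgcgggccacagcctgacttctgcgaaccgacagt
Ppp1r15a (chr7:45526269-45526518, minus strand): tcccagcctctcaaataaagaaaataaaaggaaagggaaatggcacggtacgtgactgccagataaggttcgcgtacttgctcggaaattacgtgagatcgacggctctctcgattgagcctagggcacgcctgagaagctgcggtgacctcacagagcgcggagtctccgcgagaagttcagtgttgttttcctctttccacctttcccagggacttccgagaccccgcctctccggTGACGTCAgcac
Hspa1a (chr17:34972157-34972406, minus strand): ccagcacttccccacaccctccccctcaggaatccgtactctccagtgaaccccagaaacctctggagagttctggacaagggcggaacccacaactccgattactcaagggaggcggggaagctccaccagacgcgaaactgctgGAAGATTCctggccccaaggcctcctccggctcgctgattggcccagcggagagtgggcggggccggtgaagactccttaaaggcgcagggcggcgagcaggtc
Hspa1b (chr17:34959239-34959488, minus strand): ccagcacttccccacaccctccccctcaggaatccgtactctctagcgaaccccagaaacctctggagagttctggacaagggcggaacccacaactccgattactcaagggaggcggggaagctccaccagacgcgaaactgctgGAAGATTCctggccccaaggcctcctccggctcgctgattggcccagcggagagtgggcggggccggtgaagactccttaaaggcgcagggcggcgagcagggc
Zfp36l1 (chr12:80113014-80113263, minus strand): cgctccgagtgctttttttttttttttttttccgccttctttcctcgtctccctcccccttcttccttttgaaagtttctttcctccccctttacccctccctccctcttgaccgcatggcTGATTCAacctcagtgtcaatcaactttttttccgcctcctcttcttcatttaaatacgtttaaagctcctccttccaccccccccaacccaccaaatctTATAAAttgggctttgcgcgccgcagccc

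RefSeq promoters were matched for 31 of the 37 genes, 4 of which have several listed starts. A gene was counted when any of its promoters held the motif, for members and for all 27025 gene symbols of the table alike. These 250 bases were searched on both strands. A CArG box was found in 3 of the 31 (Dusp5, Egr2 and Zfp36), 9.68% against 1.62% of all genes. The full element TGACGTCA was found in 4 (Btg2, Dusp1, Maff and Ppp1r15a), 12.9% against 1.77% of all. The shorter TGACG, which lies within TGACGTCA, was found in 14, 45.2% against 19.8%. The GAANNTTC unit, or its counterpart TTCNNGAA, was found in 6, 19.4% against 14.5%. These were Hspa1a, Hspa1b and Hsph1, but also Egr2, Fosl2 and Jun, which are not heat shock genes. The longer unit, in which GAANNTTC is followed by NNGAA or TTCNNGAA by NNTTC, was found in 0, against 0.514%. The Egr element GCGGGGGCG was found in 6, 19.4% against 2.93%. TGANTCA was found in 1 (Zfp36l1), 3.23% against 7.82%, and TATAAA in 5, 16.1% against 14.3%. The Rbpj element GTGGGAA, through which Notch acts, was found in 0, against 6.18%. These are matches of letters in a short window, and several known elements of these genes lie outside it. The promoters of Hspa1a and Hspa1b share 247 of 250 bases.

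The members' level differed more between libraries of 1 genotype than between genotype means. Together they took 1.65, 0.611 and 1.35% of all counts in WT replicates 1, 2 and 3, 1.30, 0.491 and 1.23% across DNMAML and 0.637, 1.17 and 1.14% in Notch1f/f replicates 1, 2 and 3. In each genotype a single library was low: WT replicate 2, DNMAML replicate 2 and Notch1f/f replicate 1, with summed levels of 6070.0, 4861 and 6101 CPM against 11340.2 to 17039 CPM in the other 6. These 3 libraries were the 3 lowest of the 9 for 26 of the 37 genes, while the same held for 4.84% of the 19486 genes tested. Each of the 3 was the lowest of its own genotype for 28 of the 37 genes, against 10.6% of all tested genes. The 3 libraries were picked by the members' own summed level, so these shares describe the pattern and test nothing. In RNA from sorted populations, fewer cells with a high level and a lower level in every cell cannot be told apart.

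**Figure D1:**
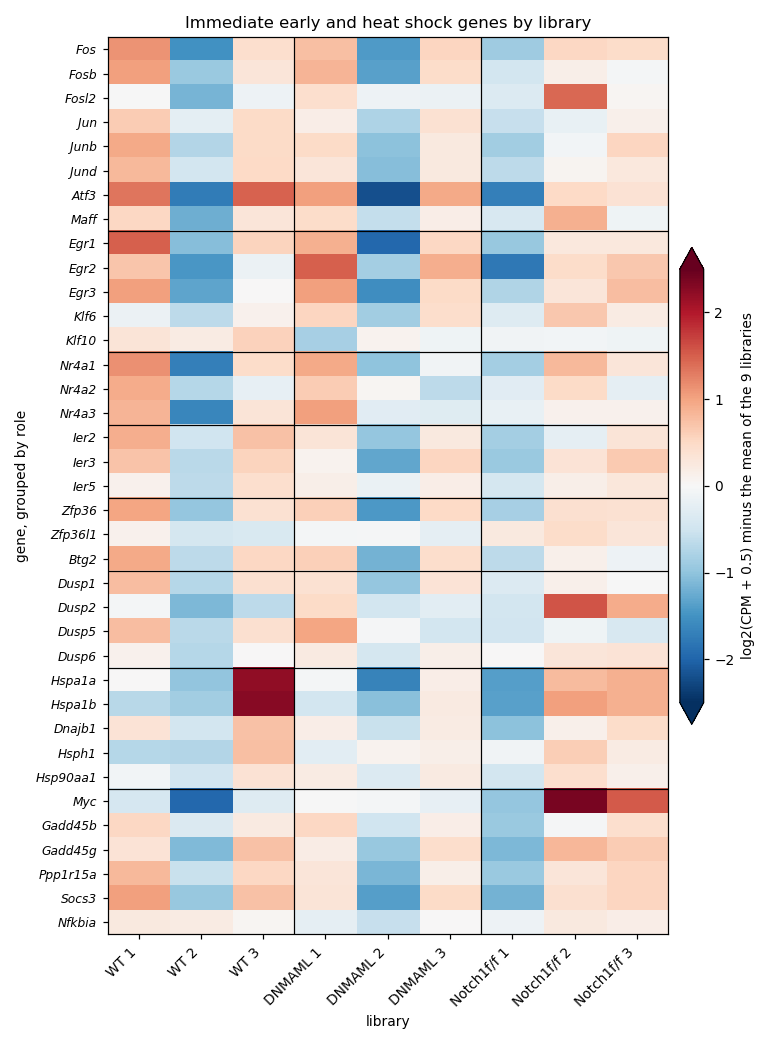
Level of each of the 37 genes (rows, grouped by role) in each of the 9 libraries (columns), as log2(CPM + 0.5) minus the gene's mean over the 9 libraries. WT replicate 2, DNMAML replicate 2 and Notch1f/f replicate 1 are blue for most genes, and 9 genes (Fosl2, Klf10, Nr4a2, Nr4a3, Zfp36l1, Dusp5, Hsph1, Myc and Nfkbia) do not have all 3 as the lowest of their genotypes.

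The factors of AP-1, the dimeric transcription factor made by Fos and Jun proteins, included the 2 members with the highest levels per length, while Maff and Fosl2 were among the lower ones. Jun (ENSMUSG00000052684, chromosome 4, 94937271 to 94940459) had 693 CPM per kilobase as a mean over 9 libraries, and Fos (ENSMUSG00000021250, chromosome 12, 85520664 to 85524047) followed with 464. Fos had 2004, 318 and 1228 CPM in WT replicates 1, 2 and 3. DNMAML libraries had 1539, 344 and 1327 CPM of Fos, and Notch1f/f libraries had 494, 1306 and 1257 CPM. The low library of each genotype thus stood far below the others, and the ranges of the 3 genotypes overlapped. The ratio of the highest to the lowest library was 6.29 in WT, 4.47 across DNMAML and 2.64 in Notch1f/f. Jun varied less, with 3291, 1776 and 2926 CPM in WT, 2374, 1232 and 2730.3 across DNMAML and 1412, 1842 and 2295 in Notch1f/f. Its lowest library in each genotype was that of Fos.

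Atf3, a stress-induced factor related to AP-1 that was singled out after its values were seen, had the widest spread of all 37 genes. Its WT libraries had 679.5, 79.9 and 745 CPM, its DNMAML libraries 545, 57.9 and 519 and its Notch1f/f libraries 81.7, 380.2 and 347. The highest library of a genotype held 9.32 times the lowest in WT, 9.40 times in DNMAML and 4.65 times in Notch1f/f. Fosb, Junb and Jund, the other subunits, had the same lowest libraries with smaller ratios, between 1.52 and 4.62. Maff, a small Maf protein that pairs with other leucine zipper factors, had 9.35 to 41.8 CPM. Fosl2, a late Fos relative, was the exception, with 65.8, 228 and 86.3 CPM in Notch1f/f and no more than 112 CPM in any WT or DNMAML library. Jund shares 52.6% of its exon bases with the gene model Gm11175 on the other strand, so its value is uncertain. Smaller shares, 16.0% for Maff and 22.1% for the phosphatase gene Dusp5, also lie in exons of genes on the other strand.

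Egr1, the first zinc finger factor of the immediate early response, lies on chromosome 18 (34992876 to 34998037) and had 1559, 262 and 812 CPM in WT. DNMAML libraries had 1019, 140.4 and 787 CPM of Egr1 and Notch1f/f libraries 284, 656 and 657. Egr2 and Egr3 were rarer, with means of 5.23 and 17.2 CPM over the 9 libraries, and they were lowest in the same library of each genotype as Egr1. Klf6, a zinc finger factor of the Krüppel family, ran from 102 to 298 CPM with the same lowest libraries. Among the NR4A orphan nuclear receptors, Nr4a1 had 204, 27.8 and 128 CPM in WT, 179, 45.5 and 87.2 across DNMAML and 51.1, 162 and 114 in Notch1f/f. Nr4a2 and Nr4a3 were lower, with means of 13.7 and 4.78 CPM. Among the DNMAML libraries both were lowest in replicate 3 rather than replicate 2. For Nr4a3 these 2 libraries were close, at 3.32 and 3.39 CPM.

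Most genes that feed back on the response had the same low libraries, with Dusp5, Zfp36l1 and Nfkbia as exceptions. Zfp36 encodes tristetraprolin, which binds AU-rich elements and speeds the decay of immediate early RNAs; it had 1127, 290.2 and 746 CPM in WT, 866, 210.2 and 803 across DNMAML and 322, 750.1 and 745 in Notch1f/f. Dusp1, a phosphatase that inactivates MAP kinases in the nucleus, had 762, 274 and 591 CPM in WT, 586, 229 and 570.0 across DNMAML and 354, 488 and 443 in Notch1f/f. Socs3, the feedback inhibitor of cytokine receptor signalling, had 1301, 330.5 and 1061 CPM in WT, 803, 248 and 893 across DNMAML and 283, 848 and 936 in Notch1f/f. All 3 had their lowest value in the low library of each genotype. Btg2, an antiproliferative gene, Ppp1r15a, which restores translation after stress, and the stress sensors Gadd45b and Gadd45g kept that order too. Of the Ier genes, Ier3, a regulator of cell survival, had 227 CPM per kilobase and Ier2 had 224, and Ier3 counted 379.7, 144 and 341 CPM in WT, 245, 92.7 and 335 across DNMAML and 121, 292 and 360.2 in Notch1f/f. Dusp6, which acts on cytoplasmic ERK, was steadier, with 137 to 284 CPM, and Dusp2 and Dusp5 had means of 1.76 and 11.3 CPM. Dusp5 and Zfp36l1 were lowest in replicate 3 among the DNMAML libraries, and Nfkbia was lowest in replicate 3 among the WT libraries.

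Most heat shock genes had their lowest values in the low libraries, but their highest values were not in the library where Fos was highest. Hspa1b (ENSMUSG00000090877, chromosome 17, 35175412 to 35178214), a gene of the inducible chaperone of the heat shock protein A family, had 41.4, 36.4 and 327 CPM in WT, 48.6, 32.5 and 78.2 across DNMAML and 26.1, 138 and 124 in Notch1f/f. Its neighbour and near-copy Hspa1a had 37.3, 18.4 and 174, 35.6, 11.3 and 41.5 and 13.8, 64.5 and 68.5 CPM. WT replicate 3 stood above all other libraries for both genes, while Fos and Egr1 were highest in WT replicate 1. For Hspa1b, WT replicate 2 lay only slightly below WT replicate 1, so the low WT library was not set apart. The 2 transcripts have 58.8% of the 50-base windows of Hspa1a in common, so reads from these shared windows cannot be assigned by sequence. Hspa1a also shares 19.0% of its exon bases with the gene model Gm20481 on the other strand, and Hspa1b shares 0%. The ratio of Hspa1b to Hspa1a counts ran from 1.11 to 2.88, and both values are uncertain. Dnajb1, the co-chaperone that delivers clients to them, had 98.1, 56.4 and 128 CPM in WT, 87.0, 52.7 and 89.1 across DNMAML and 38.0, 84.3 and 106 in Notch1f/f. Hsp90aa1, the inducible form of the abundant chaperone of the heat shock protein C family, had 191, 144 and 255 CPM in WT, 229.8, 158 and 232 across DNMAML and 145, 268 and 217 in Notch1f/f. Dnajb1 and Hsp90aa1 were lowest in the low library of each genotype, and Hsph1, an exchange factor of the same chaperone system, was not, being lowest in DNMAML replicate 1 of its genotype.

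The spread between libraries of the same genotype was compared with that of other genes. For the 34 members with a mean of at least 10 CPM, the median SD within genotypes was 0.73 on the log2 CPM scale, against 0.22 for the 9368 tested genes at that level. Of the 34, 27 exceeded the 90th percentile of all these genes (0.50), which 10% of genes exceed by construction. These are not separate observations, because 28 of the 37 members were lowest in the same library of each genotype. The members were also chosen with earlier results of these data known, so this share is a description. Atf3 had an SD of 1.66, Hspa1a 1.35, Hspa1b 1.34, Egr1 1.24, Myc 1.20 and Fos 1.15. At the other end, Zfp36l1 had 0.20, Nfkbia 0.21, Klf10 0.30 and Dusp6 0.35, within the range of the bulk of genes. Every role held genes of both kinds except the NR4A receptors, whose 2 members at that level, Nr4a1 and Nr4a2, both exceeded the 90th percentile.

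**Figure D2:**
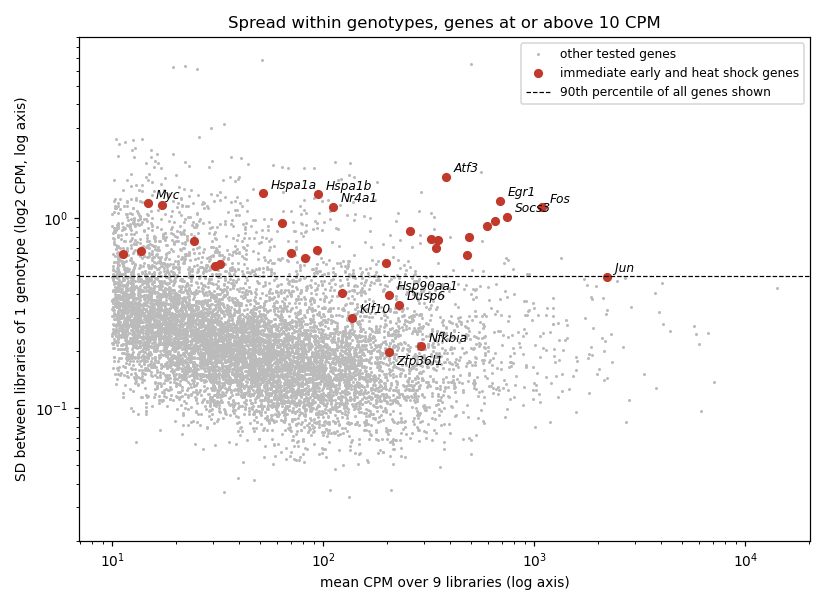
SD between libraries of 1 genotype (vertical axis, log2 CPM, log axis, pooled over the 3 genotypes) against mean CPM over the 9 libraries (horizontal axis, log axis) for each tested gene with a mean of at least 10 CPM. Of the 34 members shown in red, 27 lie above the dashed line, the 90th percentile of all genes, and Atf3 lies highest among them.

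Some other features of the same libraries moved with the members. Markers of lung epithelium, a cell type outside the sort gate, were lowest in the same library of each genotype for 10 of 10 genes. Their summed level was 1532, 399.7 and 3403 CPM in WT, 1601, 223 and 1726 across DNMAML and 155, 551 and 1204 in Notch1f/f, led by the surfactant gene Sftpc, and none of the 10 was at 0 throughout a genotype. Fibroblast markers followed the pattern for 5 of 10 genes, with summed levels of 1604, 486 and 833 CPM in WT, 2111, 476 and 1194 across DNMAML and 217, 272 and 848 in Notch1f/f. Both sums were lowest in the low library of each genotype, although the fibroblast sum of Notch1f/f replicate 2 was close to that of replicate 1. Mitochondrial genes took 0.862, 0.544 and 0.785% of counts in WT, 1.07, 0.661 and 1.18% across DNMAML and 0.697, 1.22 and 1.10% in Notch1f/f libraries, again lowest in the same library each time. The Y-linked gene Ddx3y had 106.7 to 133 CPM in WT replicate 2, DNMAML replicates 1 and 3 and Notch1f/f replicate 1. It had at most 0.225 CPM in the other 5 libraries. Each low library thus differed from the other libraries of its genotype in Y-linked RNA, but not in the same direction. The low libraries of WT and Notch1f/f held this RNA, and that of DNMAML lacked it. Endothelial markers followed the pattern for 1 of 10 genes, mural markers for 2 of 10, macrophage and monocyte markers for 1 of 10, and leukocyte, neutrophil, lymphocyte, and platelet and red cell markers for 0 of 10 each. The part of any of these in the members' pattern was not tested.

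Leukocyte markers summed to 116 to 185 CPM in WT, 109 to 331 CPM in DNMAML, 273 to 342 CPM in Notch1f/f. Mural markers summed to 379 to 559 CPM in WT, 242 to 461 CPM in DNMAML, 112 to 202 CPM in Notch1f/f, and macrophage and monocyte markers to 135 to 849.7 CPM in WT, 398 to 609 CPM in DNMAML, 189.9 to 368 CPM in Notch1f/f. Neutrophil markers summed to 6.08 to 27.7 CPM in WT, 14.4 to 126 CPM in DNMAML, 18.9 to 48.9 CPM in Notch1f/f, and 2 of them, Ly6g and Camp, had 0 counts in all WT libraries. Lymphocyte markers stayed at or below 7.33 CPM in sum, and platelet and red cell markers summed to 143 to 1064 CPM.

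**Figure D3:**
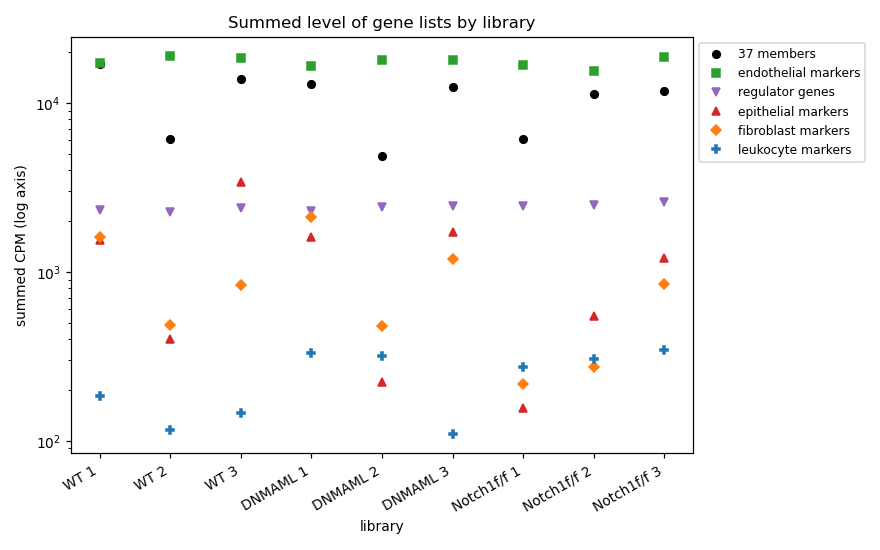
Summed CPM (vertical axis, log axis) of the 37 members and of 5 other gene lists in each of the 9 libraries (horizontal axis); each point is 1 library. The members, the epithelial and the fibroblast markers are lowest in WT replicate 2, DNMAML replicate 2 and Notch1f/f replicate 1 of their genotypes, while the endothelial markers stay between 15436 and 18889.8 CPM.

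The summed level of regulators that act upstream of these genes was steady by comparison. A list of 18 such regulators, from serum response factor and its partners to the MAP kinases, summed to 2269.9 to 2572 CPM. Of the 18, 5 were lowest in the low library of each genotype, a pattern that 10.6% of all tested genes had. Srf itself, which is also a serum response target, was 1 of these, with 73.4, 50.3 and 82.7 CPM in WT, 90.4, 45.4 and 73.9 across DNMAML and 43.3, 80.4 and 79.3 in Notch1f/f. Of 30 further immediate early genes, 23 followed the low libraries, among them Csrnp1, Ccn1, Nfkbiz and Plk2. Of the other chaperones and heat shock factors, some of which are also inducible, 7 of 22 did so, among them Hspa8, the constitutive relative of Hspa1a, while the factor Hsf1 did not, with 31.3 to 49.5 CPM. Cytokines and chemokines of the early response had a summed level of 29.8 to 94.5 CPM, of which the growth factor Hbegf and the prostaglandin enzyme Ptgs2 made the largest part, with means of 36.2 and 17.95 CPM. Of these 10 genes, 5 of 10 had the same lowest libraries. All these lists were chosen with earlier results of these data known. The low libraries were picked by the members' own level. The shares of the lists are therefore a description and test nothing.

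The comparison of DNMAML with WT asks whether these genes differ when the DNMAML construct is carried. Whether the construct blocked transcription by Notch receptors in these cells was not tested. No call was made: 0 of 37 genes rose and 0 fell in the edgeR quasi-likelihood test at a Benjamini-Hochberg adjusted p below 0.05, where 0.00513% of all 19486 genes passed. At an unadjusted p below 0.05 there were 2 of 37 genes, Klf10 and Nfkbia, against 5.97% of all genes. DESeq2 and limma-voom each called 0 members, where they called 1.09% and 0.0% of all genes. The median log2 difference of the members was -0.17, against 0.01 for all tested genes. Fos had a log2 difference of -0.14 (SE 0.81), with 1070.2 ± 638 CPM for DNMAML and 1183 ± 843 CPM for WT (SD, n = 3 each), Jun of -0.34 (SE 0.32), Egr1 of -0.44 (SE 0.87) and Hspa1b of -1.34 (SE 1.05). The difference of Hspa1b rested on WT replicate 3: without that library it was 0.46 (SE 0.74), of the opposite sign. Those of Fos and Egr1 turned to 0.47 and 0.27 without WT replicate 1, and to 0.29 and 0.05 without DNMAML replicate 2. The SE of Fos is larger than its difference, so a change of the size of that SE in either direction would not have been detected.

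Klf10, a zinc finger factor first known as an early gene of TGF-beta signalling, was lower in every DNMAML library than in any WT library, with 166, 153 and 197 CPM across WT and 74.5, 142 and 122 CPM in DNMAML. Its log2 difference was -0.61 (SE 0.20), which did not pass (edgeR, Benjamini-Hochberg adjusted p = 0.519). Nfkbia, the inhibitor that holds NF-kappaB in the cytoplasm, was also lower without overlap, with 339.5, 327 and 296 CPM across WT and 244, 191 and 287 in DNMAML and a log2 difference of -0.42 (SE 0.16). Its Notch1f/f libraries had 263, 340.4 and 319 CPM, which overlapped the WT range. Its adjusted p was 0.675 in the same edgeR test. Myc, a driver of growth, was higher without overlap, with 7.27, 2.18 and 7.79 CPM across WT and 9.77, 9.48 and 8.54 in DNMAML. Its log2 difference of 0.68 (SE 0.77) did not pass (edgeR adjusted p = 0.999). WT replicate 2 lay far below the other WT libraries, which were close to the DNMAML range. Across the settings tried, this difference of Myc ran from 0.29 to 0.97. Thus 1 of 37 genes was higher and 2 were lower without overlap, against 7.58% and 6.84% of all tested genes.

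Across genes, the deviations of same-numbered WT and DNMAML libraries from their genotype means were positively correlated, so the 6 libraries were also fitted with the number as a replicate block. In that paired fit 3 of 37 genes fell and 0 rose, where 1.71% of genes were called: 0.541% of 18117 genes fell and 1.17% rose. Ier2, a nuclear immediate early protein, had a log2 change of -0.51 (SE 0.09), Ppp1r15a of -0.49 (SE 0.09) and Atf3 of -0.43 (SE 0.09). With this block, the edgeR quasi-likelihood test gave Benjamini-Hochberg adjusted p of 0.0195, 0.0285 and 0.0489. Ier2 had 585, 219 and 517 CPM across WT and 388, 159 and 369 CPM in DNMAML, and Ppp1r15a had 563, 218 and 455 and 396, 145 and 352 CPM, so each DNMAML library was below the WT library of the same number. Each pair also joined a library with Y-linked RNA to one without, and within a pair the genotype and this difference cannot be told apart. Without the block these 6 libraries gave 0 calls among the 37 genes, where 0.431% of all genes passed. A replicate block in all 9 libraries also gave 0 calls among the members for DNMAML against WT, where 0.0205% of all genes passed. The pairs were chosen from correlations in these same data, and replicate 2 is the low library of both genotypes. The block thus removes spread that these low libraries share, so the calls of the paired fit are no independent support.

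Notch1f/f was set against WT to ask whether these genes differ when the conditional Notch1 allele is carried. Again 0 of 37 genes rose and 0 fell by the quasi-likelihood test, while 0.836% of all genes passed, 0.513% higher and 0.323% lower. An unadjusted p below 0.05 was found for 4 genes, with Zfp36l1, Dusp2 and Myc higher and Klf10 lower, against 13.5% of all genes. The median log2 difference was -0.22 for the members and 0.02 for all genes. Zfp36l1 (ENSMUSG00000021127, chromosome 12, 80154528 to 80159787), an RNA decay factor related to tristetraprolin, was higher in every Notch1f/f library than in any WT library. It had 217, 148 and 153 CPM in WT, 194, 196 and 172 across DNMAML and 237, 276 and 248 in Notch1f/f, a log2 difference of 0.56 (SE 0.15) (edgeR quasi-likelihood test, adjusted p = 0.116; DESeq2 adjusted p = 0.0297; 0.0163 to 0.378 over all settings). Klf10 was lower without overlap, with 125, 126 and 124 CPM in Notch1f/f and a log2 difference of -0.46 (SE 0.20) (edgeR adjusted p = 0.328). The groups thus did not overlap for 1 gene each way, against 8.49% of all genes higher and 9.33% lower. Markers of the mural cells that wrap vessels also differed in this comparison. Of the 10 mural markers, 4 fell (Pdgfrb, Cspg4, Higd1b and Notch3, edgeR adjusted p between 0.0165 and 0.0291) and 6 were lower without overlap. The part of this in the members' values was not tested.

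Myc (ENSMUSG00000022346, chromosome 15, 61857240 to 61862223) showed the largest difference of all members in this comparison. Its Notch1f/f libraries had 4.83, 53.5 and 29.6 CPM, so that replicates 2 and 3 were far above every WT and DNMAML library and replicate 1 lay within the WT range. The log2 difference from WT was 2.34 (SE 0.79), which missed the threshold (edgeR, Benjamini-Hochberg adjusted p = 0.237). It passed with DESeq2 (adjusted p = 0.00593) and in the edgeR test without Notch1f/f replicate 1 (log2 difference 2.84, adjusted p = 0.0138). Across the settings tried, Myc had an adjusted p between 2e-12, from edgeR with no filter on low counts, and 0.763. In that unfiltered fit the SE of Myc was 0.30, against 0.79 after filtering. Dusp2, a nuclear MAP kinase phosphatase, had 1.35, 0.384 and 0.713 CPM across WT and 0.894, 5.22 and 3.15 CPM in Notch1f/f, a log2 difference of 1.91 (SE 0.78) at a low level. Fos differed from WT by -0.22 (SE 0.81), Jun by -0.53 (SE 0.32), Egr1 by -0.72 (SE 0.88), Hspa1b by -0.49 (SE 1.04) and Hsp90aa1 by 0.09 (SE 0.26) on the log2 scale, within the spread of the libraries. Without WT replicate 3 the difference of Hspa1b was 1.30 (SE 0.76), and without WT replicate 1 that of Fos was 0.41, both of the opposite sign. Both comparisons share the WT libraries.

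**Figure D4:**
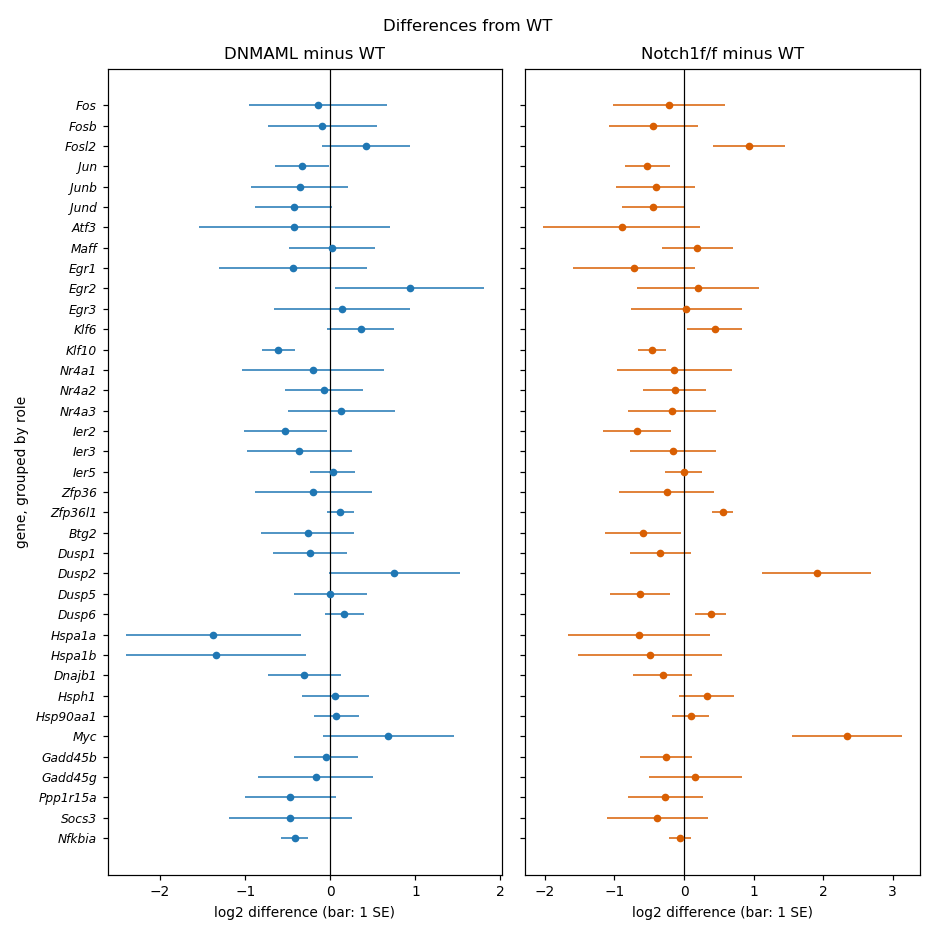
Log2 difference of each of the 37 genes (vertical axis, grouped by role) between DNMAML and WT (left) and between Notch1f/f and WT (right) from the edgeR fit to all 9 libraries; points are estimates and bars 1 SE to each side, n = 3 libraries per genotype. No gene passed at an adjusted p below 0.05; Myc and Dusp2 lie farthest right in the comparison of Notch1f/f with WT.

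**Figure D5:**
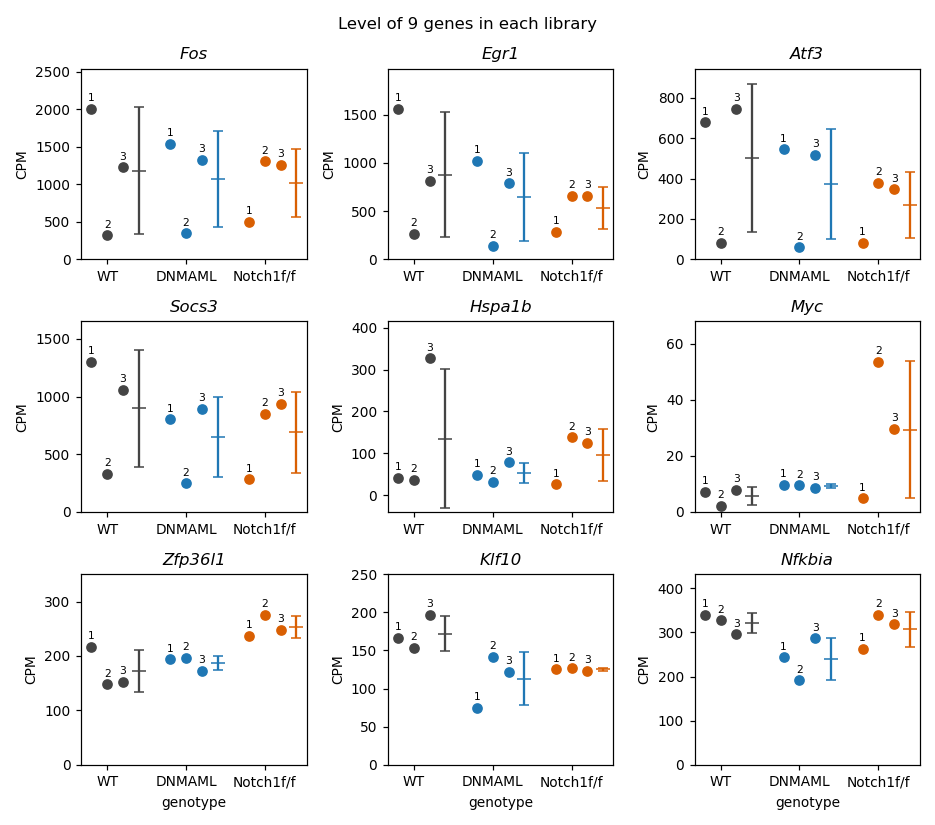
CPM (vertical axis, linear) of 9 genes in each library, with the replicate number above each point and the mean ± SD of the 3 libraries beside it. Fos, Egr1, Atf3 and Socs3 are lowest in WT replicate 2, DNMAML replicate 2 and Notch1f/f replicate 1, Hspa1b is high in WT replicate 3, Myc in Notch1f/f replicates 2 and 3, and Zfp36l1 in all Notch1f/f libraries.

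Between Notch1f/f and DNMAML, 0 of 37 genes passed in either direction, where 0.0205% of all genes did (0.0103% higher and 0.0103% lower), and 2 had an unadjusted p below 0.05, Zfp36l1 and Nfkbia, against 6.37% of all genes. DESeq2 and limma-voom each called 0 members as well, where they called 0.883% and 0.0205% of all genes. The median log2 difference of the members was -0.00292, against 0.00401 for all genes. Zfp36l1 was the only member whose groups did not overlap, higher in Notch1f/f by 0.44 (SE 0.15) on the log2 scale (edgeR adjusted p = 0.64), against 4.4% of all genes higher and 5.33% lower. The log2 difference of Myc was 1.66 (SE 0.77) and that of Nfkbia 0.35 (SE 0.16).

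The comparisons were repeated without the 3 low libraries, which left 2 libraries per genotype. In Notch1f/f against WT, Myc then rose by 2.46 (SE 0.31; edgeR, Benjamini-Hochberg adjusted p = 0.00584). Atf3 fell, with a log2 change of -0.97 (SE 0.14; edgeR adjusted p = 0.00909), from 679.5 and 745 CPM in WT to 380.2 and 347 CPM in Notch1f/f. Of all genes 1.78% were called, 1.18% higher and 0.6% lower. Against DNMAML, Myc was higher by 2.17 (SE 0.31; edgeR adjusted p = 0.033), where 0.246% of all genes were called (0.169% higher and 0.0769% lower). In DNMAML against WT 0 of 37 genes were called, against 0.205% of all genes. These libraries were left out because of the members' own values, which lowers the members' spread by choice, so these calls are no independent support.

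Other tools and filters named further members. DESeq2 called 2 of 37 genes in Notch1f/f against WT, Myc and Zfp36l1, both higher, where it called 5.48% of all genes (2.82% higher and 2.65% lower), and limma-voom called 0, with 0.354% of all genes. With no filter on low counts, edgeR called Klf10, Hspa1a and Hspa1b lower in DNMAML against WT. For Hspa1a and Hspa1b this direction rested on WT replicate 3, without which the filtered fit gave log2 differences of 0.09 (SE 0.85) and 0.46 (SE 0.74). The unfiltered fit also called Fosl2, Zfp36l1 and Myc higher and Atf3, Egr1, Ier2, Btg2 and Hspa1a lower in Notch1f/f against WT, and Hspa1a, Hspa1b and Myc higher in Notch1f/f against DNMAML. Without WT replicate 3 the filtered difference of Hspa1a between Notch1f/f and WT was 0.81 (SE 0.87), also of the opposite sign. Its shares of all genes were 1.38% (1.09% higher, 0.298% lower), 4.26% (2.0% higher, 2.26% lower) and 2.09% (0.529% higher, 1.56% lower) in these 3 comparisons. The log2 difference of Hspa1b between DNMAML and WT was -1.33 with an SE of 0.17 there, against -1.34 with an SE of 1.05 after filtering, so the estimate stayed and the SE shrank. In Notch1f/f against WT the unfiltered SE was 0.16 for Atf3, Ier2 and Btg2 and 0.17 for Egr1 and Fosl2. After filtering it was 1.13, 0.49, 0.54, 0.88 and 0.52 in that order. The unfiltered SEs were thus nearly alike, although the SD within genotypes was 1.66 for Atf3 and 0.77 for Btg2. For these genes the unfiltered SE did not follow the SD within genotypes. For other called genes the SE changed little. Zfp36l1 in Notch1f/f against WT had 0.163 unfiltered and 0.155 filtered. Klf10 in DNMAML against WT had 0.165 and 0.197. The reason for these differences was not tested. The DNMAML range of Hspa1b, 32.5 to 78.2 CPM, lay within the WT range of 36.4 to 327 CPM except for its lowest library. Without Notch1f/f replicate 1, the fit that called Myc called 2.59% of all genes, 1.81% higher and 0.788% lower.

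None of the related genes passed in the fit to all 9 libraries. Of the 18 regulators, 0 rose and 0 fell in any of the 3 comparisons. In DNMAML, Crem had a log2 difference from WT of 0.27 (SE 0.18). The largest differences in Notch1f/f were those of Mrtfb, a coactivator of serum response factor, 0.54 (SE 0.15), and Mapk9, -0.43 (SE 0.13). Of the other immediate early genes 28 of 30 were tested and 0 passed; Sgk1 and Trib1 differed most in DNMAML, by 0.48 (SE 0.21) and 0.47 (SE 0.57), and Trib1 and Dusp4 in Notch1f/f, by 1.25 (SE 0.57) and -0.94 (SE 0.27). Of the 22 chaperones and heat shock factors 0 passed, with Hspb1 at -0.49 (SE 0.39) and Hsf1 at -0.26 (SE 0.17) in DNMAML, and the small chaperone Cryab at -0.96 (SE 0.36) and Dnajb4 at -0.55 (SE 0.25) in Notch1f/f. Of the 10 cytokine genes 8 were tested and 0 passed. In DNMAML all 8 had positive log2 differences, with a median of 0.76, where 9948 of 19486 tested genes were positive. Groups were separate for 0 of the 8, against 7.58% of all genes higher. Cxcl2 at 1.93 (SE 1.09) and Ccl2 at 1.33 (SE 0.94) led, both at low levels. Cxcl2 had 1.77, 1.02 and 0.102 CPM across WT and 5.05, 5.78 and 0.219 in DNMAML. Ccl2 had 0.935, 0.256 and 0.611 CPM across WT and 0.721, 2.99 and 0.876 in DNMAML, so its difference rested on DNMAML replicate 2. The summed neutrophil markers in DNMAML libraries were 69.2, 126 and 14.4 CPM, and their part in the cytokine values was not tested. In Notch1f/f the 8 cytokine genes had a median log2 difference from WT of 0.08, with Areg at -0.62 (SE 1.01) and Cxcl2 at -0.50 (SE 1.09). Between Notch1f/f and DNMAML the same 4 lists also held 0 calls, with Mrtfb at 0.50 (SE 0.15), Mapk9 at -0.29 (SE 0.13), Bhlhe40 at 0.93 (SE 0.84), Dusp4 at -0.79 (SE 0.27), Cryab at -0.77 (SE 0.36), Dnajb4 at -0.68 (SE 0.25), Cxcl2 at -2.43 (SE 1.11) and Ccl2 at -1.31 (SE 0.93) as the largest differences of each list.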

How the data were processed

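RNA was measured in 9 libraries. The values are raw whole-number counts for each gene, which the authors deposited as 1 table. Per the file headers, counting used featureCounts 2.0.1 with Ensembl release 107 on GRCm39 and no option for strand, read pairs or multiply mapped reads, so genes with copies or overlaps are uncertain. The submitters' processing notes name STAR 2.7 and mm10. Per the labels' protocols, ribosomal RNA was depleted and strand-specific libraries were made in a single batch. Between 76.6% and 89.0% of counts below 200 were even, as when both reads of a pair are counted. Symbols came from a GRCm38 annotation, in which 52073 of 56748 identifiers were found.

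Genes were kept by filterByExpr, and genotypes were compared by edgeR 4.0.16 (R 4.3.3) with TMM scaling, a robust quasi-likelihood fit of genotype over all 9 libraries and Benjamini-Hochberg adjustment over all 19486 genes at 0.05. Each SE is the absolute log2 difference divided by the square root of the F statistic and restates the test. DESeq2 1.42, limma-voom (3.58.1), other scalings and filters, and fits without single libraries were alternatives. The fit function was tested on simulated data. The members and lists were chosen with earlier results of these data known. Values in every library are given for members whose genotypes do not overlap, the member of each role with the highest level per length and 6 genes named in the rule (Fos, Jun, Egr1, Hspa1a, Hspa1b, Hsp90aa1); others were chosen after their values were seen. A related gene that the rule would name is not reported here.

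The labels number replicates 1 to 3 without saying what a number marks. Deviations from the genotype means correlated, across genes, at 0.465, 0.201 and 0.129 for same-numbered WT and DNMAML libraries, and at -0.285 to 0.0186 for others, and these 6 were therefore treated as pairs. The Notch1f/f libraries were not taken as paired (-0.281 to 0.232 with WT, 0.0363 to 0.307 with DNMAML, for the same number). For different numbers they correlated at -0.482 to 0.555 with WT and at -0.403 to 0.345 with DNMAML. Correlations as large as those of the WT and DNMAML pairs thus also arose without a shared number.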

Additional observations from a re-analysis of the deposited data

How the results depend on the processing

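Among the 37 members, calls against the 0 of the edgeR fit to all 9 libraries appeared under the following settings. Without a filter, 3 were lower in DNMAML against WT, 3 higher and 5 lower in Notch1f/f against WT and 3 higher in Notch1f/f against DNMAML; DESeq2 called 2 higher in Notch1f/f against WT. Without the 3 low libraries, chosen after seeing the data, 1 was higher and 1 lower in Notch1f/f against WT and 1 higher in Notch1f/f against DNMAML. The replicate block in the 6 libraries of WT and DNMAML, with pairs chosen after seeing the data, gave 3 lower members. It changed no other call among the members. When single libraries were left out, 0 to 1 members were higher in Notch1f/f against WT (Myc, without Notch1f/f replicate 1), and 0 in every other direction and comparison. Over all genes, DNMAML against WT had 1 call, and 460 without a filter, 213 with DESeq2, 0 with limma-voom, 4 with the replicate block in all 9 libraries, 40 without the 3 low libraries, 78 in the 6 libraries of both genotypes, 310 there with the replicate block, and 0 to 94 without single libraries. Notch1f/f against WT had 163, and 1415 without a filter, 1067 with DESeq2, 69 with limma-voom, 279 with the replicate block in all 9 libraries, 348 without the 3 low libraries, 92 in 6 libraries with the replicate block, and 13 to 530 without single libraries. Notch1f/f against DNMAML had 4, and 696, 172, 48, 1 and 8 without a filter, with DESeq2, without the 3 low libraries, and in 6 libraries without and with the replicate block, and 2 to 31 without single libraries. The causes were not tested. The median log2 difference of the members ran, over single left-out libraries, from -0.54 to 0.12 (DNMAML against WT), -0.58 to 0.08 (Notch1f/f against WT) and -0.26 to 0.26 (Notch1f/f against DNMAML), so its sign depends on which library is left out. Of 1887 member differences under an alternative, 1864 stayed without a call and 23 gained one; 190 of those without a call had the opposite sign. Other scalings moved no member's level in a library by more than 4.40%. Depth limits mainly Dusp2, Nr4a3 and Egr2, the members with a mean below 10 CPM.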

Other observations

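Genes outside every list were ranked by how closely their log2 CPM followed the mean of the members over the 9 libraries, with Pearson's r as the measure of likeness. The 8 closest with a mean of at least 10 CPM had r between 0.951 and 0.984, a description with no test, since the libraries fall into 3 low and 6 high ones. They were Ttc21a, Capzb, Scnn1a, Midn, Sertad1, Gabarap, Sdc4 and Sfr1. Sertad1, a regulator of cyclin D kinases, had 77.1, 28.4 and 69.3 CPM in WT, 68.9, 26.6 and 66.5 across DNMAML and 29.4, 56.7 and 76.4 across Notch1f/f. Scnn1a, a subunit of the epithelial sodium channel, had 34.2, 9.86 and 38.0, 41.1, 8.43 and 27.8 and 9.83, 30.8 and 26.9 CPM, with the same 3 low libraries. Capzb, an actin capping subunit, had the same 3 lowest libraries over a narrow range, 186 to 223 CPM.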
